A study of Bos taurus with 9 samples.

Results

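SERPINA1, SERPINA14 and SERPINF1 encode secreted proteins of the serpin family, and their signals were followed on bovine Affymetrix arrays in cartilage cells and bone marrow stromal cells grown in agarose. The members were selected on the platform's gene symbol: every probe set, a group of short probes against 1 transcript, that carried 1 of the 3 symbols and no other. These were 5 probe sets of 3 genes, out of 13292 probe sets with a single symbol for 9155 genes. SERPINA1 and SERPINA14 were chosen by the size of their changes on these arrays, so their differences are given as a description with standard errors and without a test. SERPINF1 was included by name, and its differences were tested. The members were chosen with earlier results of these data known, which its p-values do not take into account.

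Serpins are a large family of proteins that share a fold with an exposed loop. Most of them trap a serine protease by offering that loop as bait, after which the inhibitor changes shape and holds the enzyme in an inactive complex. SERPINA1 encodes alpha-1-antitrypsin, the main plasma inhibitor of neutrophil elastase, made chiefly by the liver. SERPINA14 encodes uterine serpin, also called uterine milk protein (UTMP), which is abundant in the progesterone-exposed uterus of ruminants. SERPINF1 encodes pigment epithelium-derived factor (PEDF), a serpin that does not inhibit proteases, limits vessel growth and is made by mesenchymal cells, osteoblasts among them.

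Articular chondrocytes and bone marrow mesenchymal stem cells (MSCs) came from the same 3 donors, calves aged 3 to 6 months, and all were embedded in agarose. The group MSC day 0 was taken right after embedding. MSC day 28 and chondrocytes day 28 were cultured for 28 days in a chemically defined medium with TGF-beta3 at 10 ng/mL, a growth factor that drives cartilage formation. Each group held 3 arrays, 1 for each donor, and each array measured bulk RNA after linear amplification. Chondrocytes at day 0 and MSCs kept without TGF-beta3 were not analysed here, so time in agarose and exposure to the medium cannot be told apart. In bulk samples, fewer cells of a type and less RNA per cell cannot be told apart either.

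Signals are the authors' deposited log2 values. Errors on group means are SD over 3 donors, those on differences are standard errors of limma's fit to all 9 arrays, and 1 unit of log2 is a doubling. Over the 9 arrays the 25th percentile of signal lay between 2.49 and 2.55, the median between 4.91 and 5.10, the 75th percentile between 7.74 and 7.80, and the highest value between 13.36 and 13.96. COL2A1, the main collagen of cartilage, read 7.73 in MSCs at day 0, 13.69 in MSCs at day 28 and 13.73 in chondrocytes. ACAN, the main proteoglycan core protein of cartilage, read 6.58, 12.57 and 12.38. These 2 markers were thus high in both day 28 groups and do not tell chondrocytes from MSCs at day 28. On 2 arrays, MSC day 28 and chondrocytes day 28 of donor 3, the spiked hybridisation control bioC read 8.35 and 8.43, against a mean of 11.29 on the other 7. The 3′ signal of 6 control transcripts exceeded the 5′ signal by 1.34 ± 0.23 in MSCs at day 0, 1.81 ± 0.20 in MSCs at day 28 and 1.81 ± 0.19 in chondrocytes, a gap that separates time points on average; its part in the results was not tested.

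SERPINA1 was at the low end of the arrays in freshly embedded MSCs and near the top in both day 28 groups. Its probe set Bt.982.1.S1_a_at read 2.93, 3.20 and 3.07 in MSCs at day 0 of donors 1, 2 and 3, a mean of 3.07 ± 0.14. After 28 days the same donors' MSCs read 11.51, 11.44 and 11.66 (11.54 ± 0.11). Chondrocytes read 12.83, 12.74 and 12.85 (12.81 ± 0.06). No group overlapped another, and the order from MSCs at day 0 through MSCs at day 28 to chondrocytes held in each donor.

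The difference between MSCs at day 28 and at day 0 was 8.47 ± 0.13 in log2, or 355-fold, the second largest rise among 24016 probe sets. Chondrocytes exceeded MSCs at day 28 by 1.27 ± 0.13, or 2.41-fold, which ranked 921 among rises in that comparison. The difference between chondrocytes and MSCs at day 0 was 9.74 ± 0.13, or 856-fold. The donors lay close together: the gap between the day 28 groups was 1.32, 1.30 and 1.19 in donors 1, 2 and 3.

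The second SERPINA1 probe set, Bt.982.1.S1_at, kept the order of the groups but widened the gap between the day 28 groups. It read 2.96, 2.13 and 2.18 in MSCs at day 0, then 10.73, 10.73 and 10.71 in MSCs at day 28, and 12.67, 12.59 and 12.44 in chondrocytes. Its differences were 8.30 ± 0.21, 1.85 ± 0.21 (3.59-fold) and 10.14 ± 0.21 (1131-fold, the largest rise of all probe sets between chondrocytes and MSCs at day 0). Probe sets with the suffix _a_at hold probes that match more than 1 transcript variant of a gene, and whether variants differed between the groups was not tested. Because SERPINA1 lay near the 25th percentile in MSCs at day 0, its folds against that group rest on signals at the low end of the scale, where array background weighs most, and detection calls were not used here.

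SERPINA14 was high in chondrocytes and at the low end of the arrays in MSCs at both times. The probe set of higher mean, Bt.24199.1.A1_s_at, read 3.38, 3.59 and 3.22 in MSCs at day 0 (3.39 ± 0.19). In MSCs at day 28 it read 3.80, 2.55 and 3.94 (3.43 ± 0.77), and in chondrocytes 11.68, 11.03 and 10.95 (11.22 ± 0.40). All chondrocyte arrays lay far above all MSC arrays, whereas the MSC groups overlapped and their order differed between donors.

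Chondrocytes exceeded MSCs at day 28 by 7.79 ± 0.35, or 221-fold, and by 7.88, 8.48 and 7.01 within donors 1, 2 and 3. They exceeded MSCs at day 0 by 7.83 ± 0.35, or 227-fold. Between the MSC times the difference was 0.04 ± 0.35, with 0.42, -1.04 and 0.72 in the 3 donors. SERPINA14 thus parted from SERPINA1 in MSCs: both were low at day 0, and SERPINA1 alone of the pair was high on the day 28 MSC arrays.

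The other SERPINA14 probe set, Bt.594.1.S1_at, gave the same picture. It read 2.29, 2.59 and 2.80 in MSCs at day 0, 2.18, 2.39 and 2.30 in MSCs at day 28, and 10.77, 10.45 and 9.76 in chondrocytes. Chondrocytes exceeded MSCs at day 28 by 8.04 ± 0.25 (263-fold, the largest rise of that comparison) and MSCs at day 0 by 7.77 ± 0.25, and the MSC times differed by -0.27 ± 0.25. Donor 1 was the highest chondrocyte array and donor 3 the lowest on both probe sets. The suffix _s_at marks probes shared by several transcripts, and the set without that suffix showed the same contrast. On Bt.594.1.S1_at the mean of MSCs at day 28 was 2.29, under the 25th percentile of the arrays, and on both probe sets the folds and ranks of SERPINA14 rest on MSC signals at the low end of the scale, where background weighs most.

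SERPINF1 ran the other way from SERPINA1 in MSCs: it was highest at day 0 and fell during culture. Its single probe set, Bt.2638.1.S1_at, read 11.74, 11.69 and 12.06 in MSCs at day 0 (11.83 ± 0.20). In MSCs at day 28 it read 8.44, 7.99 and 8.33 (8.25 ± 0.23), and in chondrocytes 9.09, 9.23 and 9.46 (9.26 ± 0.18). The groups did not overlap, and all 3 donors had the order MSCs at day 0, chondrocytes, MSCs at day 28.

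By limma with Benjamini-Hochberg adjustment over 24016 probe sets, SERPINF1 fell by 3.58 ± 0.17 in MSCs between day 0 and day 28, an 11.96-fold drop (adjusted p = 3.48e-06). Chondrocytes exceeded MSCs at day 28 by 1.01 ± 0.17, or 2.01-fold (adjusted p = 0.00666), with 0.66, 1.24 and 1.13 in donors 1, 2 and 3. They lay below MSCs at day 0 by 5.95-fold, a difference of -2.57 ± 0.17 (adjusted p = 1.32e-05). All 3 differences had the same sign in 3 of 3 donors. Without the 2 arrays of low hybridisation controls, the gap between chondrocytes and MSCs at day 28 was 0.95 ± 0.22 (adjusted p = 0.0423). This was the highest adjusted p for that gap over 20 alternatives, of which the lowest was 0.00282.

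**Figure D1:**
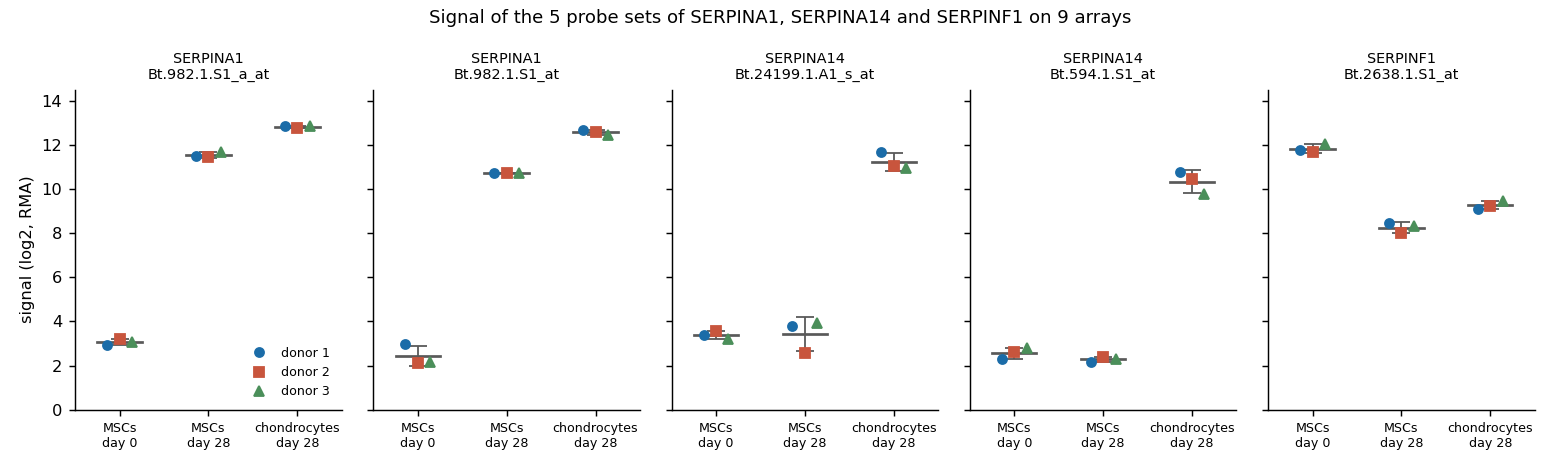
Log2 signal of the 5 probe sets (vertical axis) on the 9 arrays, by group (horizontal axis); each point is 1 donor, the long line is the group mean and the bars are 1 SD. Both SERPINA1 probe sets are low in MSCs at day 0 alone, both SERPINA14 probe sets are high in chondrocytes alone, and SERPINF1 is highest in MSCs at day 0, at 11.69 to 12.06.

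In the background of all 9155 genes, each read by its probe set of highest mean, 13.5% were called higher and 21.0% lower in MSCs at day 28 than at day 0, at an adjusted p under 0.05. For chondrocytes against MSCs at day 28 the shares were 8.35% higher and 4.81% lower, and between chondrocytes and MSCs at day 0 they were 15.1% and 20.9%. At an unadjusted p under 0.05, 15.6% of all genes were higher and 13.1% lower in chondrocytes than in MSCs at day 28. The median difference over all genes was -0.11, -0.02 and -0.12 in these comparisons. A fall such as that of SERPINF1 in MSCs was therefore a call shared by 21.0% of genes, and its size ranked 112 among falls of all probe sets.

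The other 17 serpin genes with a named probe set moved little on the whole, with medians of -0.19, 0.12 and -0.02 in the 3 comparisons. Between MSCs at day 28 and day 0, 2 rose (11.8%) and 4 fell (23.5%), shares near the background. Chondrocytes against MSCs at day 28 had 3 higher (17.6%) and 0 lower; at an unadjusted p under 0.05, limma's counts were 6 and 0, against 15.6% and 13.1% of all genes. Against MSCs at day 0, chondrocytes had 4 higher (23.5%) and 1 lower (5.88%). With 17 genes, each call moves such a share by several points.

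SERPINA11 had the largest differences of the 17 other serpins, where the next, SERPINB9, reached 2.23. Its probe set read 3.21, 3.37 and 2.97 in MSCs at day 0 and 2.93, 2.96 and 3.03 in MSCs at day 28, both near the 25th percentile of the arrays. Chondrocytes read 8.85, 8.57 and 7.001, where the lowest value was donor 3, an array of low hybridisation control. Chondrocytes exceeded MSCs at day 28 by 5.17 ± 0.40 (36.0-fold, adjusted p = 0.0001) and MSCs at day 0 by 4.96 ± 0.40 (adjusted p = 3.72e-05). Without the 2 arrays of low control the differences were 5.77 ± 0.19 (adjusted p = 3.27e-05) and 5.53 ± 0.18 (adjusted p = 6.04e-06).

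Several serpins of extracellular protease control changed in smaller steps. SERPING1, the C1 inhibitor of the complement and contact systems, fell in MSCs from 9.24 ± 0.45 to 7.76 ± 0.95 (-1.48 ± 0.43, adjusted p = 0.0268) and was higher in chondrocytes than in MSCs at day 28 by 2.21 ± 0.43 (adjusted p = 0.0115). SERPINI1, neuroserpin, an inhibitor of tissue plasminogen activator, rose in MSCs by 2.17 ± 0.53 (adjusted p = 0.0128) and stood 2.10 ± 0.53 above MSCs at day 0 in chondrocytes (adjusted p = 0.0152). SERPINE2, protease nexin-1, an inhibitor of thrombin and plasminogen activators, rose by 0.99 ± 0.33 in MSCs (adjusted p = 0.0471) and was higher by 1.19 ± 0.33 in chondrocytes than in MSCs at day 0 (adjusted p = 0.0223). A second SERPING1 probe set gave -1.48 and 1.86 with no call (adjusted p = 0.100 and 0.0914).

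Other calls were in serpins that act inside cells. SERPINH1, the collagen chaperone HSP47 of the endoplasmic reticulum, fell by 0.92 ± 0.22 (adjusted p = 0.0110). SERPINB8, an intracellular serpin that inhibits furin, fell by 1.21 ± 0.19 (adjusted p = 0.00125) and stood at -0.69 ± 0.19 in chondrocytes relative to MSCs at day 0 (adjusted p = 0.0214). SERPINB1, the leukocyte elastase inhibitor, fell by 0.45 ± 0.12 (adjusted p = 0.0162) and was higher in chondrocytes than in MSCs at day 28 by 0.44 ± 0.12 (adjusted p = 0.0444). SERPINB9, which inhibits granzyme B, was higher by 2.23 ± 0.56 in chondrocytes than in MSCs at day 0 (adjusted p = 0.0152), from a mean of 2.51 at the low end of the arrays. Its other 2 probe sets gave 0.85 and -0.11 with no call (adjusted p = 0.0743 and 0.678), and the mean of the 3 gave 0.99, still called.

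The calls of SERPINA11, and those of SERPINB8, SERPINH1 and SERPINI1 between MSC times, held under each alternative that gave a value. The others were lost under 1 or more: the highest adjusted p reached 0.146 for SERPINE2, 0.100 for SERPING1 and 0.0665 for SERPINB1 between MSC times. SERPINE2 lost that call without any 1 of 7 arrays, SERPING1 without the day 0 array of donor 2 or 3 or the day 28 MSC array of donor 1 or 3, and SERPINB1 without the day 0 array of donor 1 or the day 28 MSC array of donor 3. Between chondrocytes and MSCs at day 28 it reached 0.870 for SERPINB1, which was uncalled without any 1 of the 9 arrays and with the donor block (0.0618), and 0.0914 for SERPING1, which was also lost without the chondrocyte array of donor 2 (0.0519). For chondrocytes against MSCs at day 0 it reached 0.0756 for SERPINB8, 0.0700 for SERPINE2, 0.0567 for SERPINB9 and 0.0511 for SERPINI1, the last 2 without the day 0 MSC array of donor 2. SERPINB8 lost its call without the day 0 array of donor 1 or 3 or the chondrocyte array of donor 2 or 3, SERPINE2 without the day 0 array of donor 1 or 3 or the chondrocyte array of donor 1 or 2, and SERPINB9 also without the chondrocyte array of donor 3 (0.0539). The other 9 serpins had no call in any comparison: SERPINA3-7, SERPINA6, SERPINA7, SERPINA10, SERPINB6, SERPINC1, SERPIND1, SERPINF2 and SERPINI2.

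**Figure D2:**
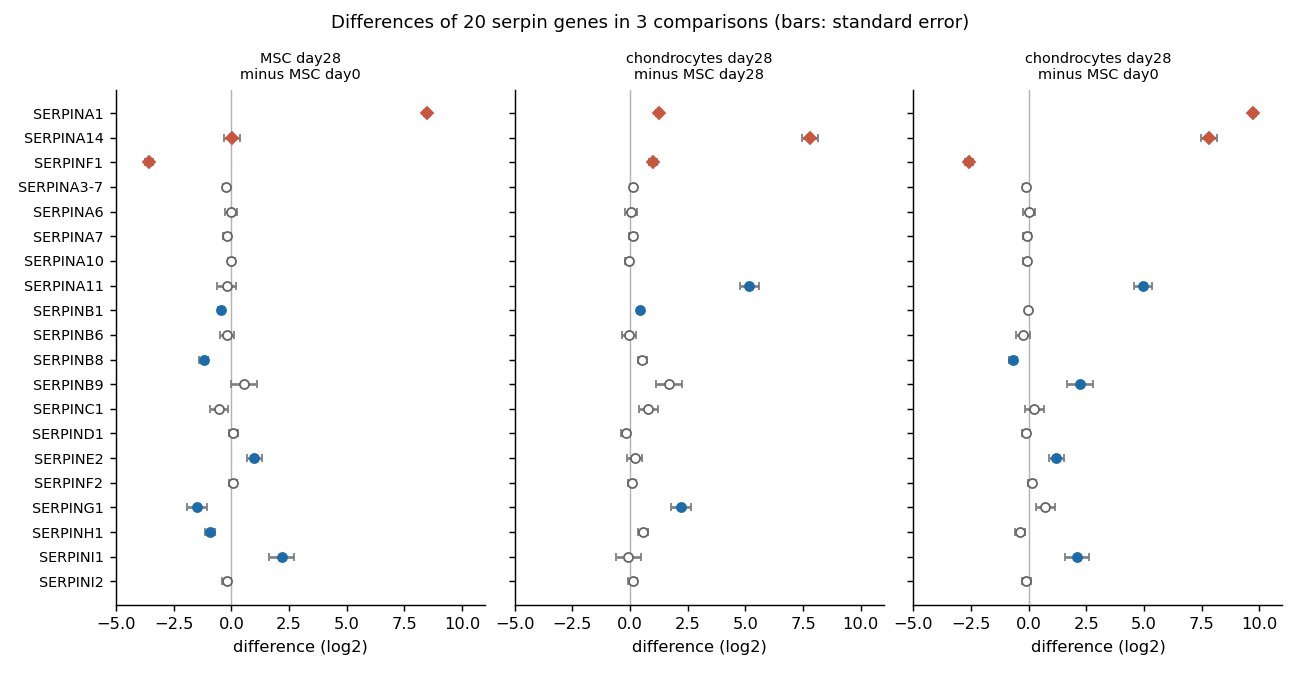
Difference in log2 signal (horizontal axis) of the 3 members (diamonds) and the 17 other serpin genes (circles, filled where the adjusted p was under 0.05) in the 3 comparisons, with standard errors as bars. SERPINA1 stands at 8.47 and 9.74 against MSCs at day 0, SERPINA14 at 7.79 and 7.83 in the chondrocyte comparisons, and SERPINA11 at 5.17 and 4.96 is the nearest of the others.

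SERPINA1 and SERPINA14 lie close together on 1 bovine chromosome, with SERPINA11 directly between them in the RefSeq gene order (assembly ARS-UCD2.0, used here for names and order alone). Of these 3 adjacent genes, SERPINA1 differed in pattern from SERPINA11 and SERPINA14. SERPINA1 was high in both day 28 groups, while SERPINA11 and SERPINA14 were high in chondrocytes alone: between the MSC times SERPINA11 differed by -0.21 ± 0.40 and SERPINA14 by 0.04 ± 0.35, against 8.47 ± 0.13 for SERPINA1. The probe sequences were not used here, so cross-hybridisation between these related genes, SERPINA11 and SERPINA14 among them, was not tested.

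Within 10 gene positions on either side, 10 genes besides the members had a named probe set. PPP4R4, a regulatory subunit of protein phosphatase 4 that lies 4 positions before SERPINA1, rose from 2.57, 2.48 and 2.29 in MSCs at day 0 to 5.47, 5.93 and 6.01 in MSCs at day 28, and read 5.71, 5.36 and 5.82 in chondrocytes. The rise was 3.36 ± 0.19 (adjusted p = 6.52e-06) in MSCs and 3.18 ± 0.19 (adjusted p = 6.27e-06) for chondrocytes over MSCs at day 0, and the day 28 groups differed by -0.17 ± 0.19 (adjusted p = 0.662). The serpins SERPINA10 (protein Z-dependent protease inhibitor) and SERPINA6 (corticosteroid-binding globulin), between PPP4R4 and SERPINA1, were not called in any comparison and stayed between 1.39 and 3.38 on the 9 arrays. OTUB2, DDX24, LOC514011, ISG12(B), IFI27 and, 10 positions after SERPINA1, SERPINA3-7 were also without a call. The differences were thus uneven along the gene order: called genes stood beside genes without a call.

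**Figure D3:**
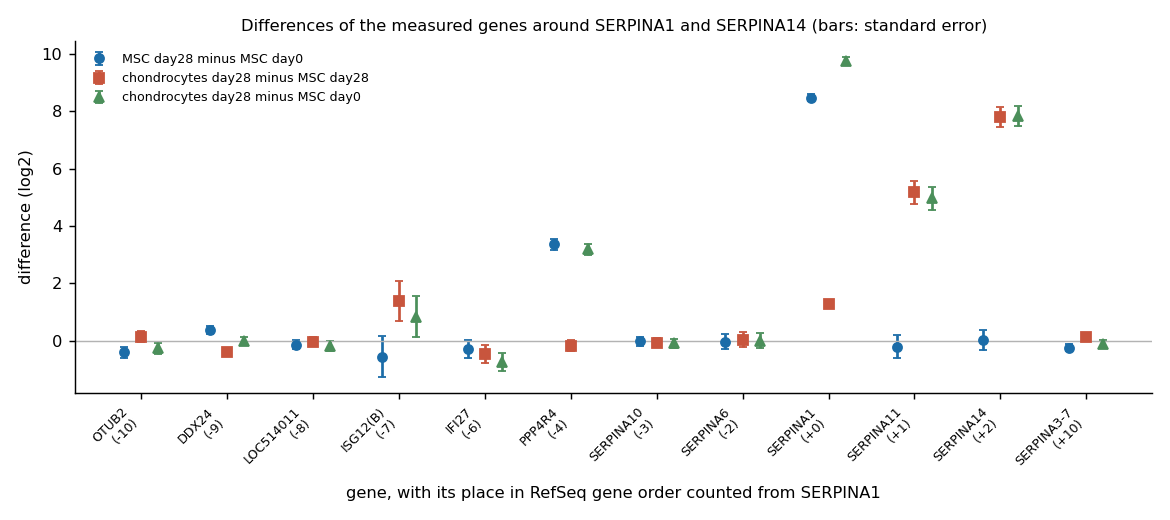
Difference in log2 signal (vertical axis, bars are standard errors) of the measured genes around SERPINA1 and SERPINA14, in RefSeq gene order (horizontal axis, place counted from SERPINA1), for the 3 comparisons. PPP4R4 shares with SERPINA1 its rise in both comparisons against MSCs at day 0, and SERPINA11 shares with SERPINA14 its height in chondrocytes, 5.17 and 7.79 above MSCs at day 28.

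Around SERPINF1, 6 of 20 neighbouring positions had a named probe set, and none changed as much. SERPINF2, alpha-2-antiplasmin, the main plasmin inhibitor of plasma, lies 2 positions before it and had no call, at 6.77 to 7.31 in MSCs at day 28 and 6.98 to 7.13 at day 0. SMYD4 and SMG6 had none either. WDR81 fell by 0.73 ± 0.17 in MSCs (adjusted p = 0.00892) and RPA1, a subunit of the single-stranded DNA binding complex, by 0.49 ± 0.14 (adjusted p = 0.0272), while PRPF8, a splicing factor, rose by 0.69 ± 0.15 (adjusted p = 0.00746). The rise of PRPF8 was 0.58 with no call (adjusted p = 0.315) by its probe set of largest SD. The fall of RPA1 was not called without the day 0 MSC array of donor 2 (0.0878) or donor 3 (0.0534), or without the day 28 MSC array of donor 1 (0.0709) or donor 2 (0.0799).

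For each member, the 5 genes of most similar pattern were found by the root mean square difference of log2 signals over the 9 arrays, after each gene was centred on its own mean. They were picked for likeness, so their values are a description. The genes nearest to SERPINA1 were COLGALT2, a collagen galactosyltransferase, at 0.557, COMP, a cartilage matrix protein that binds collagen, at 0.593, CHAD, the cartilage adhesion protein chondroadherin, at 0.864, SMOC2, a matricellular protein, at 1.02 and ZNF385B at 1.15, where the median over all genes was 4.38. All 5 were low in MSCs at day 0 and high in both day 28 groups. In the gap between the day 28 groups they fell short of SERPINA1: chondrocytes differed from MSCs at day 28 by 0.54 ± 0.26 for COLGALT2, 0.10 ± 0.18 for COMP and -0.19 ± 0.23 for CHAD, against 1.27 ± 0.13.

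The genes nearest to SERPINA14 were GAL, the neuropeptide galanin, at 1.04, TKTL1, a transketolase-like protein, at 1.29, THBS4, a matrix thrombospondin, at 1.39, SERPINA11 at 1.39 and CPE, a carboxypeptidase that processes prohormones, at 1.56, against a median of 3.75. GAL read 7.96, 9.02 and 6.88 in chondrocytes and 1.48 to 2.31 on the 6 MSC arrays. Chondrocytes exceeded MSCs at day 28 by 6.09 ± 0.45 for GAL, 5.27 ± 0.24 for TKTL1, 5.02 ± 0.32 for THBS4 and 4.58 ± 0.26 for CPE. THBS4 alone of these also differed between the MSC times by over 2, at 2.32 ± 0.32.

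For SERPINF1 the median over all genes was 1.49. The measure grows with the size of a member's own changes, so these medians do not rank the members by likeness. The nearest to SERPINF1 were PON3, a lactonase of the paraoxonase family, at 0.194, DPYSL3, a cytoskeletal regulator, at 0.307, FILIP1L at 0.318, ABRACL at 0.386 and PPP1R42 at 0.387. PON3 differed by -3.82 ± 0.15 between MSC times and by 1.08 ± 0.15 between the day 28 groups, next to -3.58 ± 0.17 and 1.01 ± 0.17 for SERPINF1. All 5 shared the order MSCs at day 0, chondrocytes, MSCs at day 28 in their group means.

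**Figure D4:**
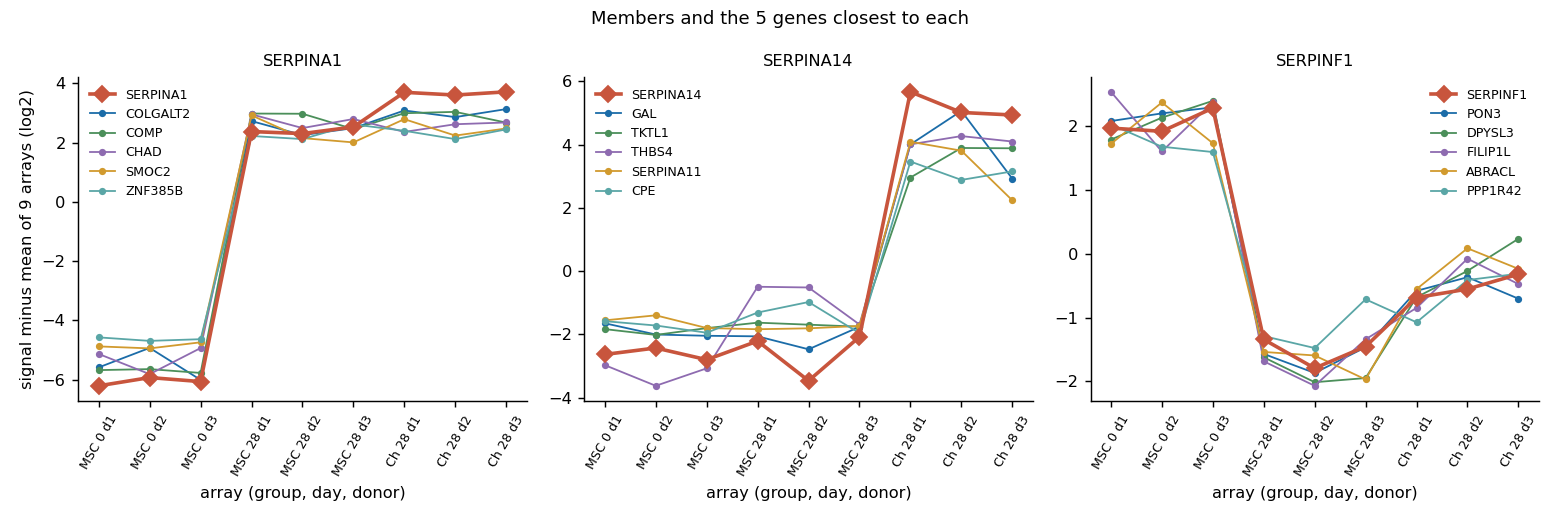
Log2 signal minus the gene's mean over 9 arrays (vertical axis) on each array (horizontal axis, by group and donor) for each member (thick line) and the 5 genes of most similar pattern (thin lines). The lines of SERPINA1 and its companions step up between MSCs at day 0 and day 28, those of SERPINA14 step up in chondrocytes, and those of SERPINF1 step down from MSCs at day 0.

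Of the listed serine proteases, the class of enzyme that most serpins inhibit, 29 of 45 genes were measured. Between MSCs at day 28 and day 0, 3 rose (10.3%, against 13.5% of all genes) and 7 fell (24.1%, against 21.0%), with a median of -0.12. FURIN, the proprotein convertase, rose by 1.71 ± 0.16 (adjusted p = 8.11e-05) and MASP2, a complement-activating protease, by 1.64 ± 0.18 (adjusted p = 0.00017). PRSS35 fell by 4.72 ± 0.31 (adjusted p = 1.43e-05) and PRSS23 by 4.11 ± 0.49 (adjusted p = 0.000297). ELANE, neutrophil elastase, the main target of alpha-1-antitrypsin, read 1.56 to 1.94 on the 9 arrays, below the 25th percentile, and its differences were between -0.02 and 0.02 with no call.

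In chondrocytes against MSCs at day 28, 4 of the 29 proteases were higher (13.8%, against 8.35% of all genes) and 0 lower (against 4.81%). At an unadjusted p under 0.05 limma's counts were 8 and 1 of the 29, against 15.6% and 13.1% of all genes. PLAU, urokinase, was higher by 3.90 ± 0.38 (adjusted p = 0.000348) and PLAT, tissue plasminogen activator, by 1.99 ± 0.37 (adjusted p = 0.00915). PLAU had fallen in MSCs by 3.59 ± 0.38 (adjusted p = 0.000168), so that chondrocytes and MSCs at day 0 differed by 0.31 ± 0.38 (adjusted p = 0.593). In chondrocytes against MSCs at day 0, 5 rose (17.2%, against 15.1%) and 4 fell (13.8%, against 20.9%). FURIN rose by 2.13 ± 0.16 and PRSS35 fell by 4.42 ± 0.31. The call of PLAT was lost without the 2 arrays of low control (1.59, adjusted p = 0.0593).

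Receptors proposed for PEDF and serpin complexes were read from 8 of 12 listed genes. SORL1, a sorting receptor of the low-density lipoprotein receptor family, rose in MSCs by 6.16 ± 0.15 (adjusted p = 6.39e-08) and stood 5.79 ± 0.15 above MSCs at day 0 in chondrocytes (adjusted p = 8.22e-08). PLXDC2, a transmembrane protein described as a PEDF receptor, fell in MSCs by 2.26 ± 0.29 (adjusted p = 0.000467), in the same comparison in which SERPINF1 fell. PLXDC1, its paralogue, was higher in chondrocytes than in MSCs at day 28 by 3.23 ± 0.62 (adjusted p = 0.0117), and VLDLR, the very low-density lipoprotein receptor, lower by 1.00 ± 0.13 (adjusted p = 0.00189). PNPLA2, a lipase also described as a PEDF receptor, differed by 0.80 ± 0.27 between MSC times without a call (adjusted p = 0.0506). In all, 1 of the 8 rose and 2 fell between MSC times, against 13.5% and 21.0% of all genes. Between the day 28 groups 2 were higher and 1 lower, against 8.35% and 4.81%. Between chondrocytes and MSCs at day 0, 1 rose and 2 fell, against 15.1% and 20.9%. With 8 genes these counts cannot tell the list from all genes. VLDLR has 4 probe sets, and by that of largest SD its day 28 difference was -0.26 (adjusted p = 0.623).

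Genes that fold, trim and carry secreted glycoproteins such as alpha-1-antitrypsin changed little, with 19 of 23 measured and medians of -0.15, 0.22 and -0.15. MCFD2, a cargo receptor subunit for export from the endoplasmic reticulum, rose by 1.07 ± 0.17 in MSCs (adjusted p = 0.00139). MAN1A1, a Golgi mannosidase, fell by 1.55 ± 0.20 (adjusted p = 0.000472). EDEM2, which marks misfolded glycoproteins for degradation, fell by 0.93 ± 0.24 (adjusted p = 0.0163, and 0.0511 without the day 0 MSC array of donor 2). Of the 19, 1 rose (5.26%, against 13.5% of all genes) and 3 fell (15.8%, against 21.0%) between MSC times. Between the day 28 groups 1 was higher (5.26%, against 8.35%) and 1 lower (5.26%, against 4.81%). Between chondrocytes and MSCs at day 0, 2 rose (10.5%, against 15.1%) and 2 fell (10.5%, against 20.9%). Both calls between the day 28 groups, PDIA4 (0.70, adjusted p = 0.0492) and DERL2 (-0.50, adjusted p = 0.0367), were lost with the donor block (0.0618 and 0.0544).

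Signals of the acute phase, the inflammatory programme in which liver raises SERPINA1, were read from 15 of 19 listed genes. IL1R1, the interleukin 1 receptor, rose in MSCs by 2.69 ± 0.19 (adjusted p = 1.9e-05). IL6 fell by 3.15 ± 0.55 (adjusted p = 0.00224) and NFKBIA, the NF-kappa-B inhibitor, by 2.27 ± 0.41 (adjusted p = 0.00267). These 3 were the calls of that comparison, 6.67% of the list higher and 13.3% lower, against 13.5% and 21.0% of all genes. IL6 (2.34 ± 0.55, adjusted p = 0.0263) and OSMR, the oncostatin M receptor (1.30 ± 0.24, adjusted p = 0.00847), were the 2 genes higher in chondrocytes than in MSCs at day 28. They were 13.3% of the list, against 8.35% of all genes, and 0 were lower, against 4.81%. At an unadjusted p under 0.05 in limma 3 were lower, against 13.1% of all genes. Against MSCs at day 0, chondrocytes were higher in 2 of the 15 (13.3%, against 15.1%) and lower in 1 (6.67%, against 20.9%), with a list median of -0.27. The IL6 call between the day 28 groups was lost under 5 alternatives, with adjusted p up to 0.115 without the 2 arrays of low control.

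Other genes best known from liver were called in both directions against MSCs at day 0 and only higher between the day 28 groups, with 25 of 32 measured. RBP4, the plasma retinol carrier, rose in MSCs by 2.80 ± 0.27 (adjusted p = 0.000101) and FOXA3, a forkhead transcription factor, by 2.56 ± 0.25 (adjusted p = 0.000105). TTR, transthyretin, fell by 7.85 ± 0.46 (adjusted p = 8.01e-06) and was higher in chondrocytes than in MSCs at day 28 by 2.72 ± 0.46 (adjusted p = 0.00602). HP, haptoglobin, was higher in chondrocytes than in MSCs at day 28 by 2.95 ± 0.59 (adjusted p = 0.0138). That call was lost without the 2 arrays of low control (2.44, adjusted p = 0.0803) or without the chondrocyte array of donor 2 (2.55, adjusted p = 0.0573). In MSCs 6 of the 25 rose (24.0%, against 13.5% of all genes) and 2 fell (8.0%, against 21.0%). Between the day 28 groups 5 were higher and 0 lower, against 8.35% and 4.81%. At an unadjusted p under 0.05 in limma these were 9 and 0, against 15.6% and 13.1% of all genes. Between chondrocytes and MSCs at day 0, 8 rose and 3 fell, against 15.1% and 20.9%. ALB, albumin, was 1 of the falls in MSCs by its brightest probe set (-1.37 ± 0.15, adjusted p = 0.000169), but its probe set of largest SD rose (2.71, adjusted p = 0.000355), so no direction is given for it.

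Of genes of progesterone and oestrogen response, the setting in which SERPINA14 is known, 9 of 12 were measured. FKBP5, a steroid-induced chaperone partner, rose in MSCs by 4.02 ± 0.33 (adjusted p = 4.12e-05) and stood 3.05 ± 0.33 above MSCs at day 0 in chondrocytes (adjusted p = 0.000162). PGR, the progesterone receptor, had mean signals of 1.90, 1.84 and 1.87 in the 3 groups, below the 25th percentile of the arrays, and no call. IHH, a hedgehog ligand, was higher in chondrocytes than in MSCs at day 0 by 1.09 ± 0.33 (adjusted p = 0.0338, up to 0.119 over 20 alternatives). For chondrocytes against MSCs at day 28, where SERPINA14 differed by 7.79 and 8.04, 0 of the 9 were called in either direction. Of all genes 8.35% were called higher and 4.81% lower. At an unadjusted p under 0.05 limma gave 1 higher and 1 lower, against 15.6% and 13.1% of all genes. With 9 genes these counts cannot tell the list from all genes, and its part in the SERPINA14 result was not tested.

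Markers of other cells that could carry these transcripts were summed over their lists as log2 signals. The sum of 10 measured hepatocyte markers was 40.1 to 42.5 in MSCs at day 0, 38.2 to 39.6 in MSCs at day 28 and 40.4 to 41.7 in chondrocytes. Of them, 7 lay below the array median on all 9 arrays (APOA2, APOB, APOH, FGB, FGG, AMBP and HNF4A), and the other 3 were ALB, AHSG and APOA1. AHSG, fetuin A, had group means of 8.54, 8.64 and 8.90 and no call. APOA1, the main protein of high-density lipoprotein, had group means of 6.07, 7.14 and 9.08, in the order of the SERPINA1 means, and was called higher in all 3 comparisons. Its differences were 1.07 ± 0.36 (adjusted p = 0.0485, up to 0.164 over 22 alternatives), 1.94 ± 0.36 (adjusted p = 0.00897) and 3.01 ± 0.36 (adjusted p = 0.00029), and their part in the SERPINA1 result was not tested.

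Monocyte and neutrophil markers, 13 of 14 measured, summed to 48.9 to 66.1, 50.6 to 51.0 and 58.7 to 61.6, with ITGAM, ITGB2, PTPRC and MPO below the median on all arrays. In chondrocytes against MSCs at day 28, 3 of these 13 were higher (23.1%, against 8.35% of all genes) and 1 lower (7.69%, against 4.81%). The higher were S100A8 (3.55), S100A9 (2.09) and CSF1R (1.60), and the lower was CTSS (-1.12). In MSCs 1 rose (7.69%, against 13.5%), CSF1R by 1.62, and 5 fell (38.5%, against 21.0%). The falls were CD68 (-1.47), AIF1 (-2.08), TYROBP (-2.43), ITGB2 (-1.33) and CTSS (-1.15). In chondrocytes against MSCs at day 0, 3 were higher (23.1%, against 15.1%) and 4 lower (30.8%, against 20.9%). CSF1R had group means of 4.39, 6.01 and 7.61, in the order of the SERPINA1 means, while the 5 that fell in MSCs went against that order. The part of these markers in the SERPINA1, SERPINA14 and SERPINF1 results was not tested. Endothelial markers summed to 27.1 to 28.2, 29.4 to 30.8 and 30.0 to 30.7, with 6 of 8 below the median on all arrays, and epithelial markers to 29.6 to 33.2, 27.2 to 28.7 and 30.2 to 32.2, with 5 of 8 below it. In each day 28 group, 2 endothelial markers were called higher than in MSCs at day 0 (25%, against 13.5% and 15.1%) and 0 lower. Of the epithelial markers, 1 rose and 1 fell in MSCs (12.5% each, against 13.5% and 21.0%). In chondrocytes against MSCs at day 0, 2 epithelial markers were higher (25%, against 15.1%) and 1 lower (12.5%, against 20.9%). CDH1, E-cadherin, fell by 4.56 ± 0.61 in MSCs, from 7.33 to 2.77 (adjusted p = 0.000546), and was also lower in chondrocytes than in MSCs at day 0, at -4.62 ± 0.61 (adjusted p = 0.000519). CLDN4, a tight junction protein, and KRT5, a basal keratin, were higher in chondrocytes than in MSCs at day 28 by 1.64 ± 0.37 (adjusted p = 0.0225, up to 0.0788 without the chondrocyte array of donor 2) and 1.44 ± 0.24 (adjusted p = 0.00602), or 2 of 8 markers (25%, against 8.35%). APOA1, AHSG, S100A8, S100A9, CSF1R, CD68, AIF1, TYROBP, ITGB2, CTSS, CDH1, CLDN4 and KRT5 were named after their values were seen. Calls of S100A8, S100A9, CSF1R, CD68, AIF1, TYROBP, ITGB2 and CTSS were not followed over the alternatives. The part of the endothelial and epithelial markers in the SERPINA1, SERPINA14 and SERPINF1 results was not tested.

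Of 8 measured chondrocyte markers all 8 were called higher in both day 28 groups than in MSCs at day 0, against 13.5% and 15.1% of all genes. The sums were 39.4 to 42.7, 85.8 to 89.4 and 90.4 to 91.6. In chondrocytes against MSCs at day 28, where SERPINA14 differed, 1 of the 8 was called higher (12.5%, against 8.35%) and 7 had no call. Marrow stromal markers, all 10 measured, summed to 69.9 to 78.0 in MSCs at day 0, 61.0 to 65.4 in MSCs at day 28 and 63.3 to 65.7 in chondrocytes, and 3 of the 10 fell in MSCs (30%, against 21.0% of all genes). In chondrocytes against MSCs at day 0, where SERPINF1 was also lower, 2 of the 10 were lower (20%, against 20.9%).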

How the data were processed

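Total RNA of 9 samples (3 donors in each of 3 groups) was hybridised to single-colour bovine Affymetrix arrays, with linear amplification per the labels' protocols. The authors deposited log2 signals summarised by RMA, per the submitters' processing notes, its version not given in the sources used here. RMA subtracts a modelled background and makes array distributions alike, so values are relative within an array and low signals depend on the background step. The deposited values were used unchanged.

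Of 24128 probe sets, 112 controls were left out. A platform annotation gave 13292 of the other 24016 a single gene symbol, 86 several and 10638 none; 13263 single symbols matched RefSeq by gene ID. A gene was read by its probe set of highest mean over 9 arrays. Groups were compared with limma 3.58.1 (lmFit and eBayes, R 4.3.3) on all 9 arrays, with Benjamini-Hochberg adjustment over 24016 probe sets and calls at an adjusted p under 0.05. With 3 arrays a group, their number limits the precision.

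Donor numbers pair the samples, since the cells came from the same animals: deviations from group means correlated at 0.108 to 0.412 over 9 same-donor pairs and at -0.303 to 0.152 over 18 other pairs. Array signals correlated at 0.978 to 0.990 within groups, and 0 pairs were identical. The alternatives were other scalings, signal filters, variance models, probe set rules, the donor block, the low hybridisation controls, and leaving out each array.

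The members and the gene lists were chosen with earlier results of these data known. Named were all other serpins, the genes within 10 RefSeq positions of a member, the 5 of most similar pattern, the 2 largest called rises and falls of a list in each comparison (fewer where calls depended on the settings), COL2A1 and ACAN as checks, and 5 fixed genes, of which LMAN1 and CTSG had no named probe set. Genes of the hepatocyte and liver lists overlap. Sequences of the members were not used here.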

Additional observations from a re-analysis of the deposited data

How the results depend on the processing

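The differences of SERPINA1, SERPINA14 and SERPINF1 kept their direction under the 20 alternatives run on each, except that of SERPINA14 between the MSC times, which lay near 0 (-0.22 to 0.48 for Bt.24199.1.A1_s_at). By design, the signal filters, variance model, donor block and leaving out an array of an uninvolved group leave a difference unchanged. SERPINA1 and SERPINA14 were chosen for large changes, so that their direction held is a description and not a test. Centring on ribosomal protein genes raised the overall median by 0.16 in both chondrocyte comparisons, and SERPINA1 with it, to 1.43 and 9.90 (Bt.982.1.S1_a_at) and 2.01 (Bt.982.1.S1_at, chondrocytes against MSCs at day 28). Centring on the array median shifted all probe sets by -0.12 between chondrocytes and MSCs at day 0, where SERPINA1 read 9.62. Each donor has 1 array in each group, so the donor block changes standard errors and cannot move a difference. With it, the call of SERPINF1 between the day 28 groups held, at the same 1.01. Calls there were lost for SERPINB1, FOXA3, DERL2, ATP5F1B and PDIA4. Of the calls followed over the alternatives, no other was lost by the block. Of 6 other serpins called between MSC times, 3 were called without the 2 arrays of low control. For chondrocytes against MSCs at day 28 the count of 3 became 5 with those arrays as a block, 1 with the probe set of largest SD, and 1 to 3 with 1 array left out, lowest without the chondrocyte array of donor 2. For chondrocytes against MSCs at day 0 the count of 5 became 2 with the filter at the median signal, which drops dim genes, and 3 to 5 with 1 array left out. Over all fixed lists, the 16 calls between the day 28 groups became 9 without the 2 arrays of low control, 10 to 14 with 1 array left out, and up to 20, with centring on ribosomal protein genes. ALB, lower between MSC times, had no call with the mean of its probe sets (0.0455, adjusted p = 0.85) and was higher by that of largest SD (2.71), as it was between chondrocytes and MSCs at day 0 (2.68). Where no cause is named it was not tested. Of 121 calls of named genes followed over the alternatives, 88 held under every alternative that gave a value. Signals near the low end of an array limit the folds of SERPINA1 against MSCs at day 0 and of SERPINA14 against both MSC groups, and 3 donors a group limit all errors.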
